A study of Mus musculus with 3 samples.

Results

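Peaks of trimethylated histone H3 lysine 36 (H3K36me3) that fall inside long protein-coding genes are described here. A peak was taken when its midpoint lay within the span of a RefSeq protein-coding gene and the longest such gene at that point spanned 100 kb or more. This held for 379 of the 1806 H3K36me3 peaks (21.0%, exact 95% interval 19.1 to 22.9%), or 37.1% of the 1021 peaks in protein-coding genes. They lay in 343 of 2427 long genes (14.1%). Another 399 peaks lay in genes of 30 to 100 kb, 243 in genes under 30 kb and 785 in no protein-coding gene. The rule used gene span and peak position only, so score, width and place within the span were not used by it. Gene function goes with span, so gene lists are set beside genes of the same length class.

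The material was intestinal cells of C57BL/6 mice with the genotype setd2f/f, 6 weeks old. All 3 libraries share this genotype and age: 1 ChIP with an H3K36me3 antibody (ab9050), 1 ChIP with a SETD2 antibody (LS-C341561) and 1 input library without antibody. The labels name no Cre driver, no number of animals and no cell sorting, and no gene expression was measured, so cell identity could not be checked against marker levels. With 1 library for each ChIP there was no replicate check, and no test between samples was possible. Intervals are exact Clopper-Pearson 95% intervals, treat peaks or genes as independent and cover neither animal nor library variation.

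SETD2 is the methyltransferase that places H3K36me3. It travels with elongating RNA polymerase II, so the mark is known from the bodies of transcribed genes, where it often strengthens toward the gene end. Proteins that read it take part in DNA methylation of gene bodies, mismatch repair, splicing and the silencing of start sites inside genes. Since the mark is broad, a list of narrow peaks records only where the signal rose above the caller's threshold, and the mark may be present in genes that hold no peak.

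Promoter sequences come first. Of the 379 peaks, 2 touched a listed RefSeq promoter window (GRCm38.p6, the 250 bases before a start). Both starts lie inside a longer gene. The rule puts each midpoint inside a long gene, while the window of that gene's outer start lies outside its span or at its edge. Few touches at outer starts therefore follow from the rule. The count was not set beside even placement or the other peaks, so it shows neither a lack nor an excess at promoters. A promoter window was listed for 265 of the 343 long genes with a peak (77.3%). At the starts of the other genes a touch could not be counted. In Dip2b, which encodes a homolog of a disco-interacting protein, the peak at chr15:100154147-100154862 (score 34.5) shared 249 of 250 bases with the window of an internal start, 117 kb into the 182 kb span. In Mical3, which encodes an actin-oxidising enzyme, the peak at chr6:121136793-121137505 (score 34.7) covered all 250 bases of the window of the long noncoding RNA Gm30842. The promoters of Cog5, the long gene with most peaks, and Cntnap2, whose peak scored highest among genes over 1000 kb, follow as examples. None of the 379 touched them, which the rule makes likely. Each sequence is on the plus strand, 5′ to 3′, with CG dinucleotides in capitals.
Dip2b internal start, chr15:100154146-100154395: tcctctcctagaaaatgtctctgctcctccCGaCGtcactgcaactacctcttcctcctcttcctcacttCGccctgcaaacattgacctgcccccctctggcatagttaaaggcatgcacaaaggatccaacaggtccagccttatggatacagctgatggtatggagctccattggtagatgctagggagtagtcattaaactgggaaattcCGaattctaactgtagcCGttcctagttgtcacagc
Gm30842 within Mical3, chr6:121137237-121137486: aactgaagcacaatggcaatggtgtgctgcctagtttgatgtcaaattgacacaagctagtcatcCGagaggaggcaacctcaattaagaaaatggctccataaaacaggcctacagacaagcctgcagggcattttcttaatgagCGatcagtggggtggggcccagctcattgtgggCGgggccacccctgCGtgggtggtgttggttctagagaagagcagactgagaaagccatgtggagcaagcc
Cog5, chr12:31654619-31654868: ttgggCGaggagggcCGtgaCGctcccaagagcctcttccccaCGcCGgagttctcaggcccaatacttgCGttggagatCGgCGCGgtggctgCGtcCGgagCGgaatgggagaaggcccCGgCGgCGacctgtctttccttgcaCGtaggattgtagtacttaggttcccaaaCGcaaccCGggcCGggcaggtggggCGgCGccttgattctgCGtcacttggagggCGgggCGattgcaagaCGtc
Cntnap2, chr6:45059811-45060060: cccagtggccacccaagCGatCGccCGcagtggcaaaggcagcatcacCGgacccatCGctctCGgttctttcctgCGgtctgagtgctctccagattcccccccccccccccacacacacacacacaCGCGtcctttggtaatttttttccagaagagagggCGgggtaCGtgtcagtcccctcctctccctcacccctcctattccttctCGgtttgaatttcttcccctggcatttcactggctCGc
The windows under a peak held 5 CG in Dip2b and 4 in Gm30842, and had 49.6% and 52.0% G and C. Cog5 had 25 CG and 64.8% G and C, and Cntnap2 had 13 CG and 59.6%. Across all 27025 genes with a window, the median was 6.00 CG, near the 5 and 4 above, and 40.2% held 10 or more. CG reads the same on both strands and was counted in each gene's window richest in CG. Among long genes the median count was 17.0 with a peak (265 genes with a window) and 17.0 without (1601 genes). Split at a span of 300 kb, a limit chosen after the data were seen, genes of 100 to 300 kb had 20.5 CG with a peak (interval of the median 17.0 to 23.0) against 17.0 without (16.0 to 18.0). Of these, 80.7% with a peak (73.9 to 86.4%) and 71.5% without (68.9 to 73.9%) held 10 or more CG. In genes of 300 kb and over the order was the opposite, 13.0 (10 to 16.0) with a peak and 15 (14.0 to 17.0) without, and these intervals overlap.

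Long genes held fewer H3K36me3 peaks than their share of the chromosomes. They cover 23.0% of the chromosome intervals, and placing the peaks of each chromosome evenly along it would put 434 in long genes, against 379 observed (ratio 0.874, 0.796 to 0.955). Shorter genes lay on the other side, with ratios of 2.04 (1.87 to 2.23) for 30 to 100 kb and 2.35 (2.08 to 2.64) under 30 kb. Within the long genes the ratio was 1.06 (0.848 to 1.30) from 100 to 150 kb, 1.31 (1.03 to 1.65) from 150 to 200 kb and 1.03 (0.812 to 1.28) from 200 to 300 kb. It was 0.807 (0.635 to 1.01) from 300 to 500 kb, 0.596 (0.439 to 0.789) from 500 to 1000 kb and 0.470 (0.308 to 0.686) above 1000 kb. The interval lay below 1 only in the classes of 500 kb and over, where 73 peaks together gave a ratio of 0.544 (0.428 to 0.681). By chromosome the ratio for long genes ran from 0.651 on chromosome 1 to 1.10 on chromosome 4, leaving out Y, whose 2 long genes held no peak. Even placement counts assembly gaps and sequence that reads cannot be mapped to, and the part of these in the ratios was not tested.

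**Figure D1:**
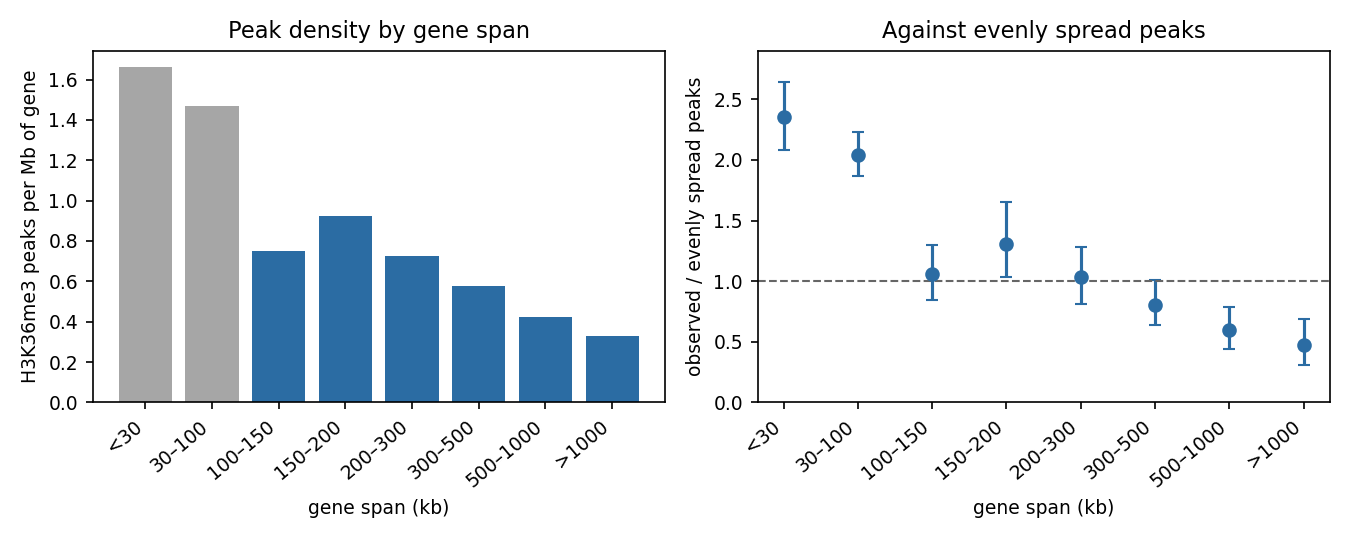
H3K36me3 peaks by gene span class in kb. Left, peaks per Mb of gene, from 1.66 in genes under 30 kb to 0.328 above 1000 kb (blue, long genes). Right, observed peaks over evenly placed peaks with exact 95% intervals, where the dashed line at 1 marks equality and the classes above 500 kb lie under it.

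Counted by gene, the share holding a peak was larger in longer classes. Above 200 kb it was smaller than evenly placed peaks would give, beyond its interval only in the classes over 500 kb. In the class of 100 to 150 kb 8.47% of genes held a peak (8.05% under even placement), and in the class of 150 to 200 kb 14.5% did (11.0%). From 200 to 300 kb the share was 14.8% (15.4%), and from 300 to 500 kb 19.4% (23.9%). From 500 to 1000 kb it was 24.4% (36.9%), and above 1000 kb 40.7% (59.7%). Over all long genes 343 held a peak (14.1%, 12.8 to 15.6%) and 372 would under even placement (15.3%, within that interval). The even share also lay within the intervals from 200 to 300 kb (11.6 to 18.5%) and from 300 to 500 kb (15.3 to 24.1%). With a limit of 80 kb in place of 100 kb the difference over all long genes was gone, at 417 observed and 416 under even placement.

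**Figure D2:**
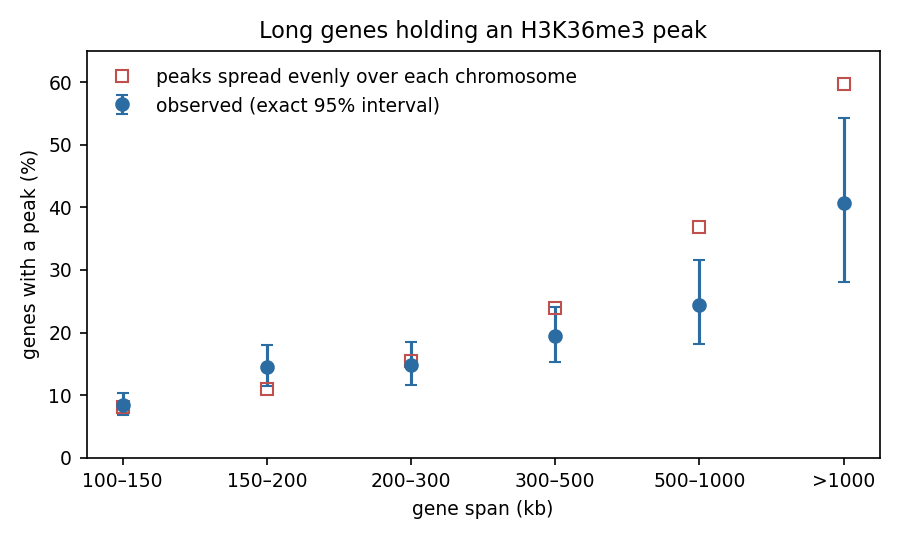
Share of long genes that hold an H3K36me3 peak (y axis, percent) by span class (x axis, kb). Filled points with exact 95% intervals are observed, from 8.47% to 40.7%, and open squares are evenly placed peaks, from 8.05% to 59.7%, with the squares above the intervals in the classes over 500 kb.

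The longest genes include both sides of this. Ptprd, a receptor phosphatase of synapses and the longest gene with a peak (2271 kb), held 2 peaks of score 30.1 and 40. Single peaks lay in Cntnap2 (2241 kb, a neurexin-family adhesion protein), Lsamp (2197 kb, a limbic adhesion protein), Lrp1b (2058 kb, a lipoprotein receptor), Dlg2 (1973 kb, a synaptic scaffold) and Csmd1 (1643 kb). Nrxn3, Ctnna3 and Robo2 also held one, with spans of 1612, 1574 and 1555 kb. No peak lay in Dmd, which encodes dystrophin (2390 kb, 0.798 peaks under even placement), or in Macrod2 (1998 kb, 1.32). The same held for Fhit (1612 kb, 1.06), Pcdh15 (1554 kb, 1.12) and Rbfox1 (1528 kb, 0.996), and for Dpp10, Magi2, Gpc5, Lrrc4c and Il1rapl2. At the other limit, the members with the shortest spans lay in Sestd1 (100.3 kb, score 31.5), Specc1l (100.4 kb, 37.5) and Scp2 (101.1 kb, 32.5). Just outside were Vmp1 (99.98 kb, scores 42.3 and 45.8), Cdc73 (99.62 kb, 33.0) and Adgrf5 (99.23 kb, 34.4). Setd2 itself spans 86.13 kb and is not a long gene, and it held 2 H3K36me3 peaks.

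Most long genes with a peak held only 1. The counts were 309 genes with 1 peak, 33 with 2, 0 with 3 and 1 with 4, where even placement gives 321, 42.9, 6.80 and 1.24. Thus 34 genes held 2 or more peaks, against 51.3 under even placement. By span class these were 4 genes from 100 to 150 kb, 4 from 150 to 200 kb and 9 from 200 to 300 kb. Another 9 lay from 300 to 500 kb, 6 from 500 to 1000 kb and 2 above 1000 kb. Even placement of this count was not split by class, so these values do not show a shortfall at every span. The 70 peaks of the 34 genes were mostly far apart: the smallest distance within a gene had a median of 91.2 kb and ran from 2.28 to 295 kb. In 12 genes it was under 50 kb, in 3 under 10 kb and in 0 under 1 kb, so runs of adjacent peaks over 1 gene body were not seen in this list.

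Cog5, a subunit of the Golgi tethering complex, was the gene with 4 peaks. It spans chr12:31654819-31937630 (283 kb, plus strand), where even placement gives 0.215 peaks. Its peaks lay 15.7 kb (score 30.1), 39.9 kb (33.6), 171 kb (40.6) and 276 kb (34.1) from the start. They were spread along the gene, the last 6.77 kb from its end, and the last also lay within Hbp1, a neighbouring gene for a transcriptional repressor, so it cannot be given to 1 of the 2 genes.
Ap3b1, a subunit of the AP-3 vesicle coat, had the closest pair, 2.28 kb apart and 13.2 and 15.5 kb from the start (scores 32.4 and 38.6). Tmcc1 had a pair 8.58 kb apart (30.7 and 31.5). Dpysl2 and Ptk2b, with spans of 108 and 128 kb, were among the shortest genes with 2 peaks, and neither gene's peaks scored above 34.0.
Nedd9, a docking protein of integrin signalling, held peaks of 31.5 and 56.6, which were 106 kb apart. Usp6nl, a Rab GTPase activator, held 36.8 and 47.2, and Cers6, a ceramide synthase, 30.5 and 45.0. Sgms1, which makes sphingomyelin from ceramide, held 33.9 and 37.9, the latter 5.18 kb from the start. In Nedd9, Usp6nl and Cers6 the higher score exceeded the lower by more than 10.
Pairs also lay in Pard3, a polarity protein (31.7 and 31.7), Epb41l2, a membrane skeleton protein (39.9 and 31.1), Nr3c2, the mineralocorticoid receptor (37.5 and 31.2), and Bach2, a transcriptional repressor (34.5 and 31.4). Zfp993, Zfp978 and Prkdc were the 3 of the 34 genes in regions with 10 or more annotated pseudogenes within 500 kb of a peak. Zfp993 and Zfp978 are zinc finger genes with near-identical neighbours, so placement of reads there is uncertain. Zfp981 also lay at the midpoints of the Zfp993 peaks, and Zfp991 at that of the Zfp978 peak of score 37.0. These peaks cannot be given to a single gene.

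**Figure D3:**
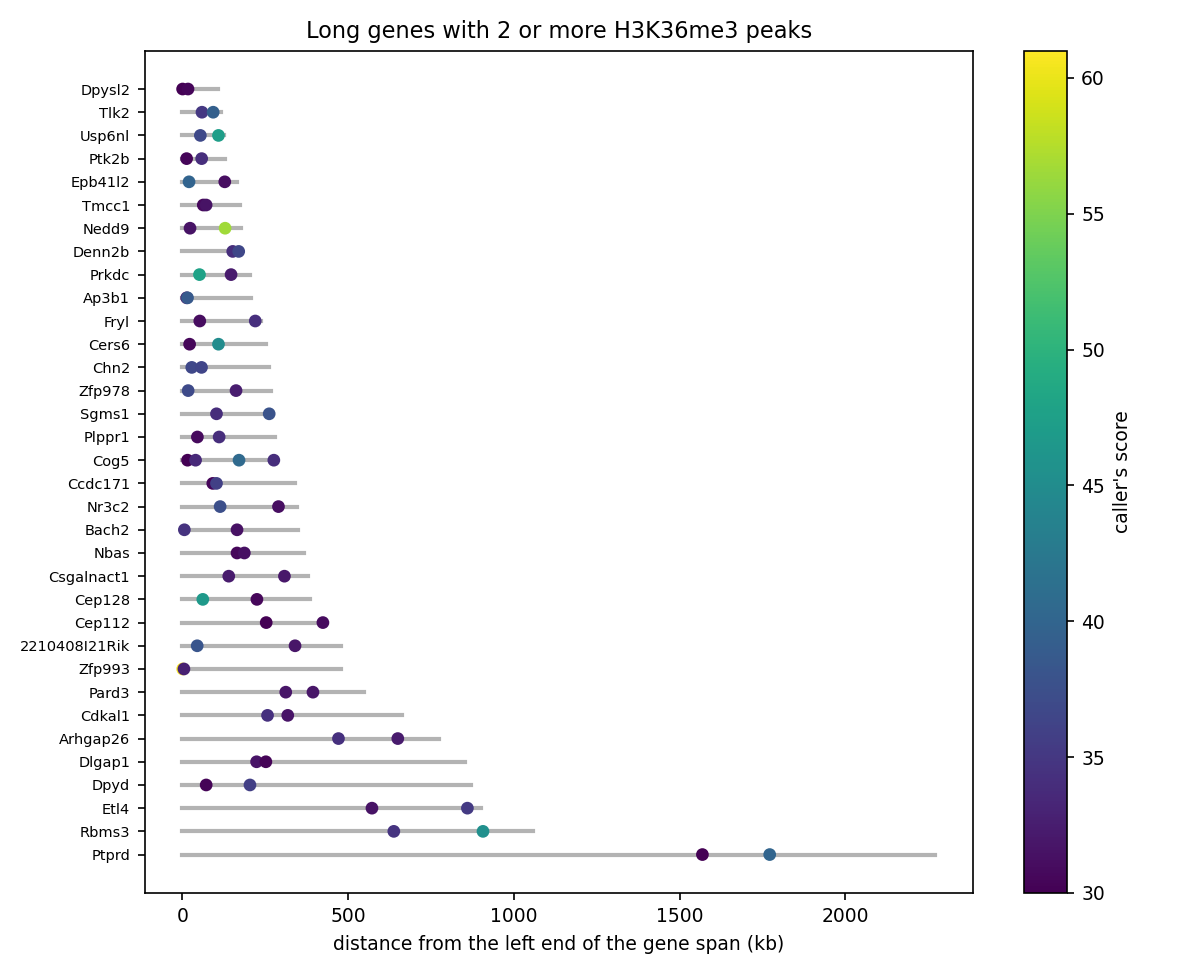
The 34 long genes with 2 or more H3K36me3 peaks, ordered by span. Grey lines are gene spans, points are peak midpoints as distance in kb from the left end of the span, and colour is the caller's score. Cog5 has 4 points, the others 2, and pairs lie 2.28 to 295 kb apart.

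Scores in long genes resembled those of the rest of the list. The score is the authors' value per peak, of unstated scale, and serves here only to rank peaks within the list. Its median was 33.5 in long genes (interval 33.0 to 34.1, range 30 to 73.2), 33.3 in genes of 30 to 100 kb, 34.7 (34.1 to 35.7) in genes under 30 kb and 33.5 outside genes. Scores of 40 or more were reached by 55 members (14.5%, 11.1 to 18.5%), against 13.5%, 16.0% and 14.8% in the other classes. Within long genes this share was 18.4% at 100 to 200 kb (29 of 158), 13.5% at 200 to 500 kb (20 of 148) and 8.22% at 500 kb and over (6 of 73, 3.08 to 17.0%). None of the last class passed 49.2, and the intervals of the 3 classes overlap. Members were slightly narrower than peaks in shorter genes, with a median width of 583 bp (565 to 599) against 619 bp (608 to 630) in genes of 30 to 100 kb and 594 bp outside genes.

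The member with the highest score, 73.2, lay in Tmem267, a transmembrane protein gene, at chr13:119494212-119495406 and 6.72 kb from the start. Zfp993 followed with 60.7, in the pseudogene-rich region named above and with Zfp981 at the same midpoint. Zmynd8, a chromatin reader that binds acetylated and methylated histones, had 59.9 at chr2:165877355-165878091. Fut8, the fucosyltransferase of core N-glycans, had 56.9, Nedd9 56.6, Cmip 56.1, the deubiquitinase Usp34 53.3 and the mitotic kinase Nek6 52.6. These 8 were the members at 50 or more, and 7 of them lay outside pseudogene-rich regions.
Dock2 (49.2, a Rac activator of leukocytes), Zfp385b (48.9), Cntnap2 (47.9), Map3k5 (47.9, a stress-activated kinase), Prkdc (47.9, the catalytic subunit of DNA-dependent protein kinase), 4932438A13Rik (47.4) and Usp6nl (47.2) completed the top 15. The widest member, 2785 bp in Lyst, a lysosomal trafficking gene, scored only 30, whereas Zfp993 (1647 bp) and Tmem267 (1195 bp) were both among the 5 widest and at the top by score. The peak in Lyst lay at chr13:13752690-13755474, 86.9% along the span.
Of the members, 14 of 379 (3.69%) lay in pseudogene-rich regions, against 7.27% in genes of 30 to 100 kb, 13.6% under 30 kb and 11.2% outside genes. The share for evenly placed positions was not computed, so the values do not tell the peaks from the places where long genes lie. Nearly all the long genes with a peak had a curated RefSeq transcript, 341 of 343 (99.4%), as did 99.2% of all long genes.

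Along the gene, pooled over all long genes, the last of 5 equal parts held the largest share of peaks. Strand was known for genes holding 292 of the members, through the RefSeq promoter table, and over 5 equal parts from the start their shares were 22.6%, 19.2%, 14.7%, 16.4% and 27.1% (last, 79 peaks, 22.0 to 32.5%), where even placement gives 20%. By span class the order differed: from 200 to 500 kb the first part held 29.4% (32 of 109) and the last 27.5% (30), and at 500 kb and over the second and the last held 27.1% each (16 of 59). In genes of 30 to 100 kb the last of the 5 parts held 19.4% (63 of 324), and under 30 kb 16.9%. Divided into 10 parts, a division added after the data were seen, the ninth part of long genes held 51 peaks (17.5%, 13.3 to 22.3%) and the last 28 (9.59%). The ninth of the 10 held 14.5% at 100 to 200 kb, 19.3% at 200 to 500 kb and 20.3% at 500 kb and over. It was not the only high part: at 200 to 500 kb the first held as many peaks (21), and at 500 kb and over the third did (12). In genes of 30 to 100 kb the fourth of the 10 was highest, at 15.7%, while the ninth held 9.26%.
Long genes whose peak lay in that zone include Usp34 (86.4%), Usp6nl (86.7%), Med13l, a Mediator kinase-module subunit (81.5%), Macf1, an actin and microtubule linker (86.1%), Erbb4, a neuregulin receptor (81.8%), and Met, the hepatocyte growth factor receptor (83.7%). In Cntnap2 and Map3k5 the peak lay later still, at 96.8% and 98.6% of the span.
Near the starts and ends of genes the counts were close to, or above, those of even placement. Within 1 kb of the start there was 1 peak, in Zfp993 (where Zfp981 also lies), and even placement gives 1.14. Within 1 kb of the end there were 0 of 292 peaks, and even placement again gives 1.14 peaks. The interval of the observed share reaches 1.26%. The counts near starts and ends leave out members without a known strand. Of those, peaks in Plekha7, Man1a2 and Dpysl2 lay 0.423, 0.760 and 0.767 kb from the nearer limit of the gene. Within 5 kb there were 8 at starts and 5 at ends (5.72 each under even placement), within 10 kb 18 and 14 (11.4 each), and within 20 kb 31 and 27 (22.9 each). Median distances were 113 kb from the start and 105 kb from the end. Another gene lay at the midpoint of 29 members (7.65%), a long noncoding RNA for 18 and a protein-coding gene for 7.

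**Figure D4:**
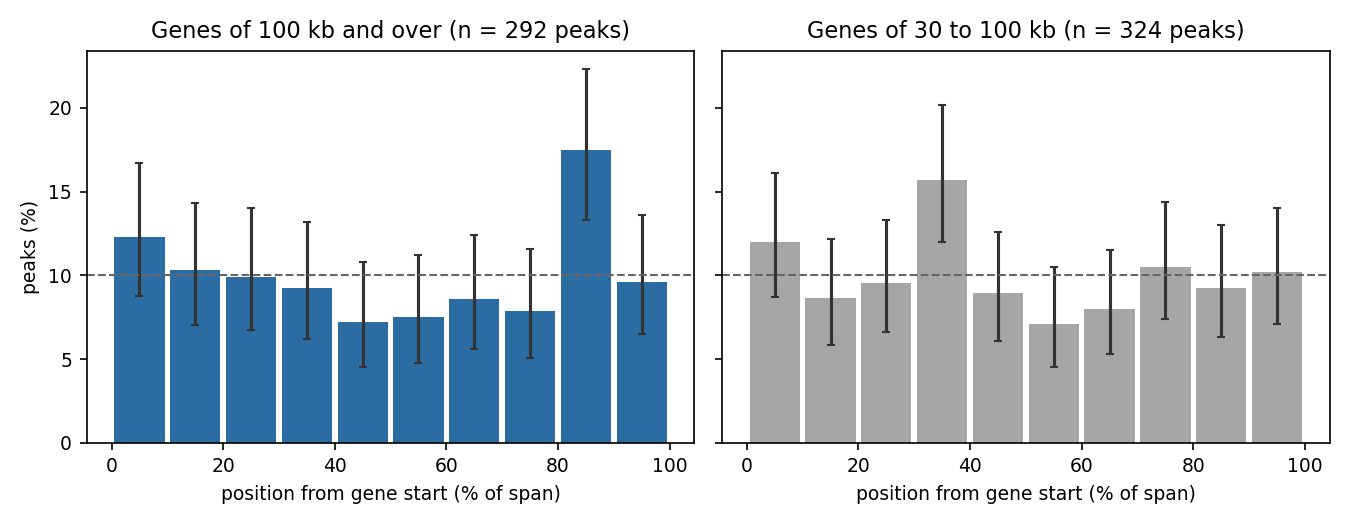
Position of H3K36me3 peaks from gene start to end (x axis, percent of span) as a share of peaks (y axis) with exact 95% intervals, in long genes (left, 292 peaks) and genes of 30 to 100 kb (right, 324 peaks). The dashed line is the share under even placement, and the ninth part of long genes stands at 17.5%.

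Gene lists were counted among the long genes. Beside each count stands the number expected if each gene had the share of its own span class, the mean of random genes of that length class. A list's own genes are part of these classes, which draws the expected count toward the observed one. The lists were assembled from textbook roles with earlier results of these data known, share members and are described by counts alone, without a test. In all long genes 14.1% held a peak.

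The list of DNA repair, replication and cell cycle genes held peaks in 9 of 22 (40.9%, 20.7 to 63.6%), with 3.21 expected. Cep128 had 2 peaks and Cep112 had 2, with top scores of 46.7 and 30.9, and both encode centrosomal proteins. Cdk6, a G1 kinase, had a peak of 42.8, and Rb1, the retinoblastoma repressor of cell cycle entry, one of 33.7. Cdc14a, a phosphatase of mitotic exit, had 33.6, Stag1, a cohesin subunit, 33.2, and Xrcc4, which takes part in joining double-strand breaks, 31.2. Cdk14 had 34.2, and Cdkal1 held 2 peaks with a top score of 34.3. Cdkal1 modifies tRNA despite its name, and without it, a choice made after the data were seen, the count was 8 of 21, with 2.97 expected. With only peaks at or above the list's median score (33.61), 5 genes held one, against 1.66 expected. An excess at this limit was not particular to these genes. Every other list but the neuronal and leukocyte ones also lay above its expected count. The ubiquitin list, for example, held 5 against 2.15, while the leukocyte list held 2 against 2.67.

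Vesicle and Golgi genes held peaks in 11 of 44 (25%, 13.2 to 40.3%; 6.79 expected), with 16 peaks in all. Beside Cog5 and Ap3b1 these were Nbas, a tether of Golgi-to-ER traffic with 2 peaks, Bbs9 of the ciliary BBSome (37.1), and Vps13c, a lipid transfer protein (34.8). Asap2, Exoc6b, Rabgap1, Itsn2, Exoc4 and Vps41 completed them, with scores of 30.3 to 34.3, and Exoc4 and Exoc6b are subunits of the exocyst. The list of ubiquitin ligases and proteasome regulators held peaks in 7 of 31 (22.6%, 4.26 expected), among them the deubiquitinase Usp34, the conjugating enzyme Ube2e2 (37.7) and the ligase Huwe1 on the X chromosome (35.6). It also counts Usp6nl, a Rab GTPase activator as said above, and without it, chosen likewise after the data were seen, the count was 6 of 30, with 4.17 expected. Chromatin regulators did so in 8 of 40 (20%, 5.10 expected), with Zmynd8, Kansl1 of a histone acetyltransferase complex (46.9), Smarcc1 of the SWI/SNF remodeller (40.9) and the corepressor Ncor1 (33.0). The intervals of these 3 lists include the 14.1% of all long genes.

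For epithelial functions the counts were 8 of 34 genes of adhesion, polarity and cytoskeleton (23.5%, 10.7 to 41.2%; 5.57 expected) and 2 of 17 genes of nutrient, ion and lipid handling (11.8%; 2.40 expected). The former include Plekha7 of the adherens junction (37.8), Macf1 (33.9) and Myo5b, an apical recycling motor (30.7). The latter are Slc4a4, a sodium bicarbonate cotransporter (35.5), and Slc9a9, an endosomal sodium-proton exchanger (35.4). Wnt, Notch, Hippo and receptor signalling held 6 of 36 (16.7%; 4.71 expected), with Eps8, an actin regulator of microvilli (44.0), Znrf3, a ligase that removes Wnt receptors (38.9), Erbin (35.7), Erbb4 (35.6) and Prkch (34.7). RNA processing held 6 of 32 (18.8%; 4.79 expected) and the list of zinc finger and other transcription factors 12 of 71 (16.9%; 11.5 expected). The last also counts Znrf3, which is no transcription factor, and without it the count was 11 of 70, with 11.3 expected.

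Lists named for other cell types were counted in the same way, and a gene on such a list need not be confined to those cells. Leukocyte genes held peaks in 3 of 36 (8.33%, 5.02 expected), which were Dock2 (49.2), Plcg2 (37.8) and Foxp1 (30.7), the last a factor of many cell types. Muscle, fibroblast and endothelial genes did so in 10 of 48 (20.8%, 8.79 expected), with Plcb4 (46.0), Rora (43.1), Col14a1 (40.1) and the endothelial receptor Flt1 (39.1) highest. Neuronal and synaptic genes, the largest list, held peaks in 29 of 110 (26.4%, 18.4 to 35.6%). That is close to the 30.1 expected from length class and under the 45.4 of even placement. The length classes include these genes, so observed and expected counts are not independent. At 500 kb and over, 24 genes with a peak were neuronal and 41 were other genes. Which cells gave any of these peaks was not tested.

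Peaks in neuronal genes had low scores. Of the 29 genes with a peak, 22 had a top score under the list's median (75.9%, 56.5 to 89.7%), against 165 of all 343 long genes (48.1%, 42.7 to 53.5%). Those at or above it include Cntnap2 (47.9), Grm7, a metabotropic glutamate receptor (41.6), Cdh10, a cadherin (41.1), Ptprd (40), Erbb4 (35.6) and Lsamp (34.0). At the low end were Syt1, a synaptic vesicle calcium sensor (30), Tenm3 (30.1), Kcnip4 (30.1) and Nrxn3 (30.3), close to the floor of the list. Counting only peaks at or above the list's median, 7 neuronal genes held one, against 15 expected from length class. Within spans of 500 kb and over, a division chosen after the data were seen, 6 of 76 neuronal genes (7.89%, 2.95 to 16.4%) and 28 of 151 other genes (18.5%, 12.7 to 25.7%) held such a peak. For peaks of any score the shares were 31.6% and 27.2%.

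Genes known as common fragile sites, very long genes prone to breakage under replication stress, held peaks in 15 of 30 (50%, 31.3 to 68.7%). Length class gives 9.68 expected and even placement 15.5. The length classes include the list's own genes, and the class over 1000 kb holds only 59 genes. Cntnap2, Rora, Dab1, a reelin adaptor (37.1), and Immp2l, a mitochondrial peptidase subunit (36.3), scored highest, and Dpyd, a pyrimidine-degrading enzyme, held 2 peaks. Fhit, Macrod2, Dmd and Magi2, named above, are among the genes of this list without a peak.

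**Figure D5:**
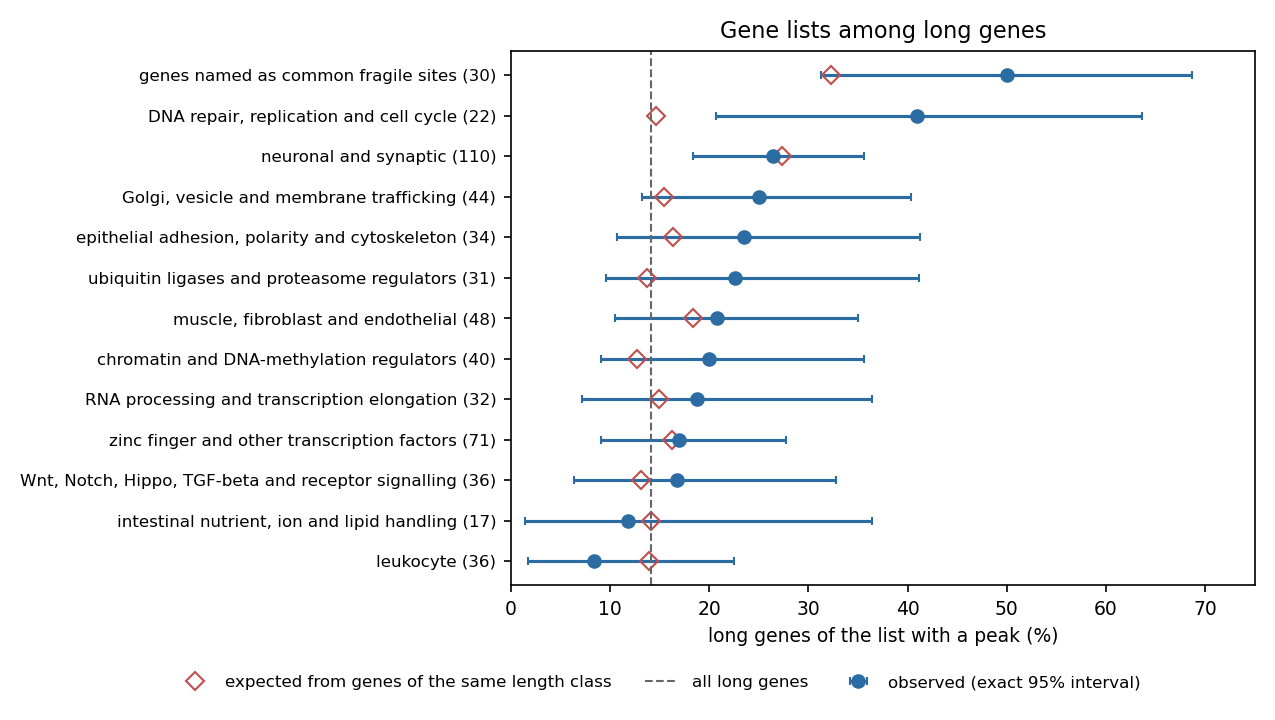
Share of the long genes of each list described that hold an H3K36me3 peak (x axis, percent), with the number of long genes in brackets. Points with exact 95% intervals are observed, diamonds are expected from genes of the same length class, and the dashed line is the 14.1% of all long genes. Points run from 8.33% for leukocyte genes to 50% for genes known as common fragile sites.

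Distances to SETD2 peaks were taken next. The SETD2 list held 186 peaks, 30 of them in long genes, and was called against the same input library. Of the 379 members 1 overlapped a SETD2 peak by at least 1 bp, 1 lay within 10 kb and 6 within 100 kb (1.58%). The overlap was in Zfp978, where Zfp991 also lies, within a pseudogene-rich region. The share within 100 kb was 3.76% for peaks in genes of 30 to 100 kb, 2.06% (5 of 243) in genes under 30 kb and 2.93% outside genes. SETD2 peaks lay in 30 long genes, and 6 of these also held a member (20%, or 1.75% of the 343), with 5.23 expected from length class.
Besides Zfp978 these were Lrp1b (970 kb between the peaks), Zfp993 (376 kb), Erc1, an active-zone and Rab6-binding protein (130 kb), Flt1 (114 kb) and Sgcd, a sarcoglycan of muscle (29.5 kb). The SETD2 peak in Flt1 had a score of 421, and its H3K36me3 peak, 39.1, lay 1.04 kb from the gene start.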

How the data were processed

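H3K36me3 and SETD2 ChIP and an input were sequenced as 1 library each. CASAVA 1.8 and hg19, a human build, are named in the submitters' processing notes, whereas the deposited coordinates were read as the mouse build GRCm38. For the aligner and the caller's settings, the sources used here give nothing. Each list gives a position and a score per peak, deposited by the authors, with a minimum near 30. Peak names begin with MACS. Read numbers are not part of the lists, so depth is unknown and intervals on shares cover the number of peaks or genes alone.

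Gene spans came from RefSeq (GRCm38.p6), with 49603 genes of which 21779 are protein-coding, after 340 genes on patch scaffolds were left out. A peak went to the longest gene at its midpoint. Even placement is the exact mean of shuffling peaks within chromosomes, between the outermost gene or peak. Length-class expectation is the exact mean over random genes of the same of 9 span classes, with the list's own genes included. Neither was resampled and no p-value was computed. The calculation of even placement was tested on simulated data. Python 3.11.15, pandas 2.3.3, numpy 2.4.6, SciPy 1.17.1 and matplotlib 3.10.9 were used. Coordinates count from 1.

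The members, the 14 gene lists and the rule for named genes were chosen with earlier results of these data known. Named were genes with 2 or more members, the 15 highest scores, the 5 widest peaks, the 10 longest genes with and without a member, up to 5 genes of each list, genes that also hold a SETD2 peak, the 3 genes on either side of 100 kb, and Setd2. Not every such gene is printed, and 1 list and some genes are not reported here. Genes named beyond these, and those given for place along the gene or low score, were chosen after their values were seen. Alternatives were other span limits, any overlap of 1 bp, a score at or above the list's median, autosomes alone, the shortest gene, merged peaks, regions without many pseudogenes and other divisions of the gene. Exon and intron placement and the base composition of peaks were planned and not analysed here.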

Additional observations from a re-analysis of the deposited data

How the results depend on the processing

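The ratio of observed to evenly placed peaks in long genes stayed below 1 under every alternative run, from 0.831 (span of 150 kb) to 0.966 (span of 80 kb). It was 0.921 outside pseudogene-rich regions. The ratio at 80 kb lies above the main interval of 0.796 to 0.955. There 463 peaks were observed and 479 given by even placement, so the shortfall nearly vanished. With peaks at or above the list's median score, 185 members in 178 long genes were left, 7 of these genes with 2 or more, against 217, 200 and 15.1 under even placement. Fewer peaks enter there by construction. Of the members, 6 lay within 100 kb of a SETD2 peak, against 1 that overlapped one, and 6 genes held both kinds of peak. Leaving out peaks whose exact score another peak shares, as 316 of the 379 members do, gave a median score of 40. The share in the last of 5 equal parts of the gene was 1.35 times even placement, 1.34 at or above the median score and 1.12 for the last of 3 equal parts. The other alternatives kept the main counts within 1.5 times and the ratio within its interval. Of the list counts, 7 moved by more than 1.5 times, all with the score limit.

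No paired analysis was possible because each ChIP has 1 library. Without read numbers, the depth behind a peak and the level of the mark in genes without one are unknown. A replicate peak list, exon positions and gene expression of the same cells were not analysed here. The human build named in the notes goes against the mouse sample, and coordinates rest on the match to GRCm38.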
